A study of Mus musculus with 12 samples.

Results

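Among 17055 hypomethylated regions (HMRs) that lay at the transcription start sites (TSSs) of mouse protein-coding genes, 991 were low in methylation in neonatal β cells and carried at least 15 percentage points more methylation in adult β cells. The members were selected on these measured levels. HMRs of the 4 pooled samples were merged where they overlapped, autosomal regions shorter than 5 kb with at least 50 reads in each pool were retained, and a region was included if its level rose by at least 15 points from postnatal day 2 (P2) to day 60 (P60) in both the eYFP- and the eYFP+ pool and if its midpoint was within 1 kb of the start of any transcript of a protein-coding gene in the GENCODE annotation of mm39. Merging gave 84472 autosomal HMRs, of which 81983 met the limits on length and reads. The change between the stages therefore chose the members and is described without a test.

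β cells were sorted from mice that carry Myt1cCre, Ngn3nCre, Rosa26eYFP and InsApple (MNYI mice), and all 4 groups share these alleles. The split Cre is complete only in progenitors that expressed both Myt1 and Ngn3, so that eYFP+ cells descend from M+N+ progenitors and eYFP- cells from M-N+ progenitors, and Apple, driven by the insulin gene, marks β cells. Each library pooled cells of many mice from several sorts, with 2 libraries per subtype at P2 and 4 per subtype at P60, male and female libraries being separate. In the labels, the reporter is called eGFP and the cell type all islet cells, whereas the methods describe β cells sorted on eYFP.

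DNA methylation in mammals sits mostly on cytosines of CpG dinucleotides and is placed on unmethylated DNA by the de novo enzymes Dnmt3a and Dnmt3b. Most CpG-rich promoters stay unmethylated in all tissues, whereas CpG-poor promoters, alternative promoters and enhancers gain or lose methylation as cells differentiate and mature. Many genes have several promoters, each giving transcripts with a different first exon. In β cells, de novo methylation is known to take part in the postnatal silencing of genes that are used before birth.

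Sequences of 5 members with large gains are shown because their CpGs carry the gain in methylation. They were chosen for the size of the gain and do not stand for the CpG density of all members, since the Nav2 window is denser in CpGs than the median member. They were read from the mm39 genome (GRCm39) 5′ to 3′ along the strand of the gene, and capitals mark CpGs. All windows were placed outside annotated exons. The first is chr7:48953575-48953874 within Nav2 (plus strand). It is followed by chr6:87001553-87001852 in an intron of Nfu1 (plus strand) and chr17:12802693-12802992 upstream of Slc22a2 (plus strand). The last are chr17:87687126-87687276 in an intron of Ttc7 (plus strand) and chr5:66703294-66703543 in an intron of Apbb2 (minus strand).

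Nav2: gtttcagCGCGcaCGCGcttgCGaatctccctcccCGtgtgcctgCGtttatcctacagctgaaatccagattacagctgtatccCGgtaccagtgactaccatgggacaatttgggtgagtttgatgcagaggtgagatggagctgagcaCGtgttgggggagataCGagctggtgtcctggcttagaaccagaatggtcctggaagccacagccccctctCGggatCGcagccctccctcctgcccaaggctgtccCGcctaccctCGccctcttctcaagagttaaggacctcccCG

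Nfu1: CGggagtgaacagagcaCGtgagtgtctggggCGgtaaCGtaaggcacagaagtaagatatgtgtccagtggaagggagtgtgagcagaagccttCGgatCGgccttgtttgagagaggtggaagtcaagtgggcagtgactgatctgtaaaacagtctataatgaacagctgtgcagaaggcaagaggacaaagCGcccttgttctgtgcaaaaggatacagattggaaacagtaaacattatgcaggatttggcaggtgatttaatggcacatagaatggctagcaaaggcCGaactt

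Slc22a2: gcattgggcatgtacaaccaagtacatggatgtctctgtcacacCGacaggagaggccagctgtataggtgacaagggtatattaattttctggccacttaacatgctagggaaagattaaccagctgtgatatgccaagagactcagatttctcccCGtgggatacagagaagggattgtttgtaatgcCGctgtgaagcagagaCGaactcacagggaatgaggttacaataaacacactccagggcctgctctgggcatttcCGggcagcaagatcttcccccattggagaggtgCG

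Ttc7: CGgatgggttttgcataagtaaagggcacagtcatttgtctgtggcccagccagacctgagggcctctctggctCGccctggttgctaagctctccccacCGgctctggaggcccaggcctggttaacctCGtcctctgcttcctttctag

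Apbb2: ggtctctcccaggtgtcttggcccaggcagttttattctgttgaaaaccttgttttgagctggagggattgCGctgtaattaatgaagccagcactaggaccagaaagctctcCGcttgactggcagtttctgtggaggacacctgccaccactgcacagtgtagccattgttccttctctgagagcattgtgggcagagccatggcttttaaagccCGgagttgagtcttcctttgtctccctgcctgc

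The Nav2 window held 15 CpGs, and its methylation level was 10.7% in the P2 eYFP- pool and 9.55% in the P2 eYFP+ pool, against 59.8% and 60.4% in the P60 pools. With both pools of a stage added, single CpGs of this window ranged from 0% to 22.6% at P2 and from 23.1% to 94.0% at P60, so every one of them was more methylated in the adult than the most methylated one was in the neonate. The 6 CpGs of the Slc22a2 window ranged from 5.88% to 19.7% and from 30.4% to 72.9%, the 4 CpGs of the Ttc7 window from 1.61% to 37.3% and from 62.2% to 81.0%, and the 3 CpGs of the Apbb2 window from 6% to 21.8% and from 36.6% to 94.0%. The 8 CpGs of the Nfu1 window ranged from 8.96% to 57.7% at P2 and from 57.7% to 89.0% at P60, and the ranges met at their ends. The gain in these 5 windows was thus spread over all their CpGs.

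The authors deposited methylated and unmethylated counts summed over the libraries of a group. Mean coverage of a CpG was 24.4 reads in eYFP- and 24.6 reads in eYFP+ cells of P2, and 44.1 and 43.9 reads, respectively, at P60. Levels are the share of methylated reads over all CpGs of a region. Numbers of reads of a region are sums over its CpGs, so a read is counted at each CpG that it covers. The levels have no replicate error, and the 95% Wilson intervals given with them cover counting error only. These intervals treat the summed counts as independent and can be too narrow where reads cover several CpGs. For a single library, only its HMR coordinates were used, which carry no counts. The names of the deposited data carry one prefix for all P2 libraries and other prefixes for the P60 libraries. What the prefix stands for is not given in the labels, and stage and prefix cannot be told apart. The methylation level over all autosomal CpGs was 69.3% and 70.1% in the P2 pools and 67.9% and 67.6% in the P60 pools, so the genome as a whole was not higher at P60. The number of HMRs on the X chromosome was lower in the female than in the male library of each pair except in P2 eYFP- cells, where the library labelled female had 1473 and that labelled male 1027. The members are autosomal, and the pools hold both libraries of each pair.

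The median level of the 991 members was 19.6% in the P2 eYFP- pool and 18.4% in the P2 eYFP+ pool, and 46.0% and 44.6% in the P60 pools. Most members thus moved from a low to an intermediate level and few became fully methylated. The median gain was 24.9 points in eYFP- and 25.2 points in eYFP+ cells. The smaller of the gains in the pools was under 20 points in 338 members, from 20 to under 30 points in 424, from 30 to under 40 points in 170 and at least 40 points in 59 (5.95%). At P60, 277 members were above 50% in both pools. Only 67 members started below 10% in both pools at P2. The gains of the pools were within 5 points of each other in 673 members (67.9%), with a median absolute difference of 3.31 points.

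**Figure D1:**
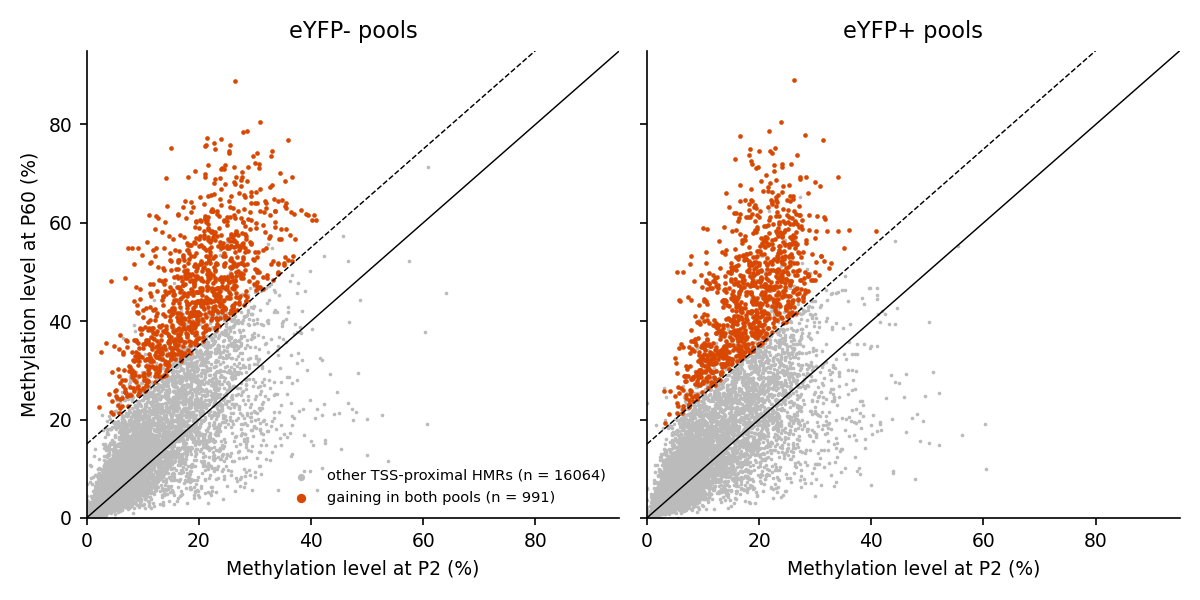
Methylation level (%) of each TSS-proximal HMR at P2 (x axis) and P60 (y axis) in the eYFP- pools (left) and the eYFP+ pools (right), with the 991 gaining members in orange, the 16064 other regions in grey, the line of equal levels (solid) and the 15-point limit (dashed). The members sit above the dashed line in both panels by selection, mostly between 10% and 30% at P2 and spread from about 20% to 89% at P60.

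The members are 5.81% of the TSS-proximal HMRs, whereas 12987 of all 81983 HMRs (15.8%) met the same limit on the gain. Of the other gaining regions, 6894 were inside and 5102 outside a protein-coding gene at more than 1 kb from a start. A fall of at least 15 points in both pools was met by 579 HMRs, 60 of them TSS-proximal. The regions just inside and just outside the limit had like values. The smaller gain was 15.006 points at Exoc3l2 and 15.007 points at Lmo4, which are members, and 14.997 points at Septin10 and 14.993 points at Rsph10b, which are not.

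The 12 members with the largest gains, among those with at least 8 CpGs and 100 reads in each pool, were near starts of Pde6c, Gkap1, Lrba, Apbb2, Agap3, Pitpnm2, Nav2, Slc22a2, Myo10, Nfu1, Ttc7 and Rgs3. The region of Pde6c, which encodes a subunit of the phosphodiesterase of cone photoreceptors, is at chr19:38121531-38121708, covers 12 CpGs and overlaps a coding exon. Its level was 26.4% (21.6 to 31.8) in the P2 eYFP- pool, 26.2% (21.7 to 31.2) in the P2 eYFP+ pool, 88.9% (86.4 to 91.0) in the P60 eYFP- pool and 89.1% (86.6 to 91.2) in the P60 eYFP+ pool. It was the member with the largest gain and the highest adult level of these 12. Agap3 encodes a GTPase-activating protein of the Arf family, and its region, chr5:24679310-24680149 over a coding exon, was dense in CpGs, with 119 of them. It had 23.0% (21.2 to 24.9) and 19.4% (17.8 to 21.1) at P2 and 74.98% (73.9 to 76.0) and 71.1% (70.0 to 72.1) at P60. The interval at P60 is narrow because 6798 and 7148 read counts, summed over the 119 CpGs and treated as independent, enter it.

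Lrba, a protein of vesicle trafficking, had a member at chr3:86453710-86454266 over a start deep inside the gene. It had 21.4% and 21.9% at P2 and 77.3% and 74.7% at P60. Myo10, an unconventional myosin of filopodia, had 21.6% and 24% at P2 and 71.7% and 71.4% at P60 at chr15:25758805-25759279. Rgs3, a regulator of G-protein signalling, had 24.1% and 18.5% at P2 and 71.1% and 66.9% at P60 at chr4:62592202-62592953. The whole Nav2 member, chr7:48953306-48954492, belongs to a gene of a cytoskeleton-associated protein named for its part in neuronal guidance. It was the lowest of the 12 at both stages, with 12.3% and 10.6% at P2 and 58.8% to 61.4% at P60. The remaining 6 had between 14.6% and 25.6% at P2 and between 63.1% and 78.8% at P60. They include Slc22a2, an organic cation transporter, Nfu1, which acts in mitochondrial iron-sulfur cluster assembly, Pitpnm2, a phosphatidylinositol transfer protein, and Apbb2, which binds the amyloid precursor protein.

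**Figure D2:**
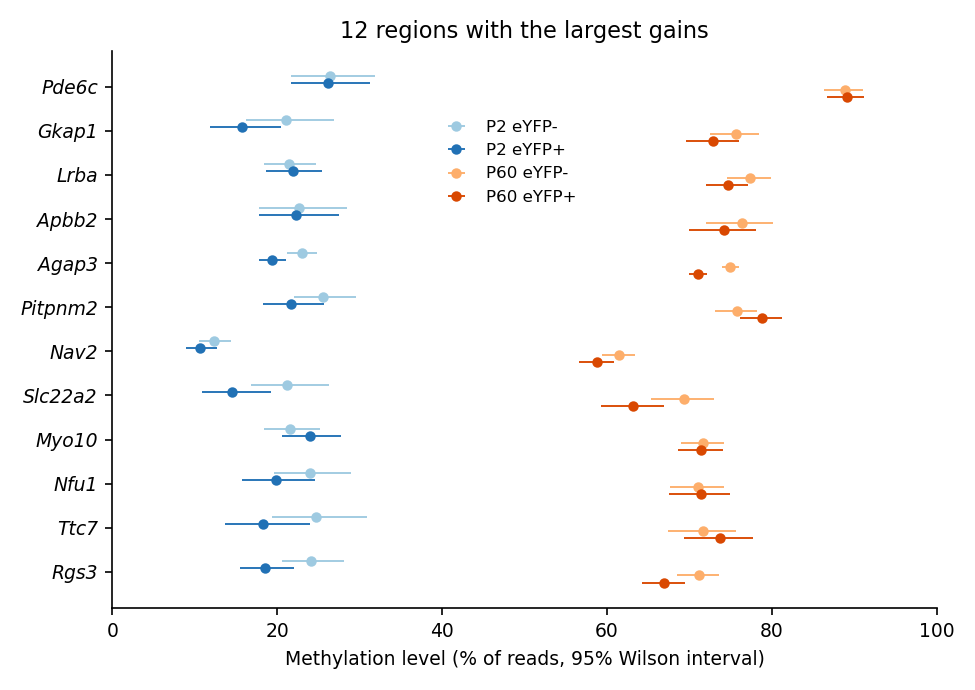
Methylation level (% of reads, x axis) of the 12 members with the largest gains in the 4 pools, with points for the pooled level and bars for the 95% Wilson interval. The P2 levels of all 12 sit between 10.6% and 26.4% and the P60 levels between 58.8% and 89.1%, and the eYFP- and eYFP+ pools of a stage lie close together.

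Single libraries were compared through their own HMR calls. An HMR overlapped 617 and 649 of the 991 members in the P2 eYFP- libraries and 760 and 672 in the P2 eYFP+ libraries. In the P60 eYFP- libraries the numbers were 109, 126, 107 and 129, and in the P60 eYFP+ libraries 100, 139, 109 and 151. No P60 library reached the lowest P2 library. As shares these were 63.9% ± 2.28 (SD, n = 2), 72.3% ± 6.28 (n = 2), 11.9% ± 1.15 (n = 4) and 12.6% ± 2.44 (n = 4). Over all TSS-proximal HMRs the shares were 91.0%, 91.5%, 84.9% and 84.8%, so HMR calls at starts in general were slightly fewer at P60. Over all autosomes, a P2 library had 55619 to 59870 HMRs and a P60 library 37067 to 48399. The part of this general drop in the fall at the members was not tested. The pooled levels that chose the members are made of these same libraries, and the shares are a description.

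Of the members, 471 had an HMR in all 4 P2 libraries, 784 (79.1%) had none in any of the 8 P60 libraries, and 269 met both. All 12 members with the largest gains were without an HMR in every P60 library, and 7 of them had one in all 4 P2 libraries. At the other end, 63 members had an HMR in all 8 P60 libraries. Another 110 had none in any single P2 library and rest on the HMRs of the pools. Where an HMR remained in both P60 pools (166 members), it had become smaller. It covered a median of 97.2% and 100% of the length of these members at P2, and of 33.5% and 36.0% at P60.

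**Figure D3:**
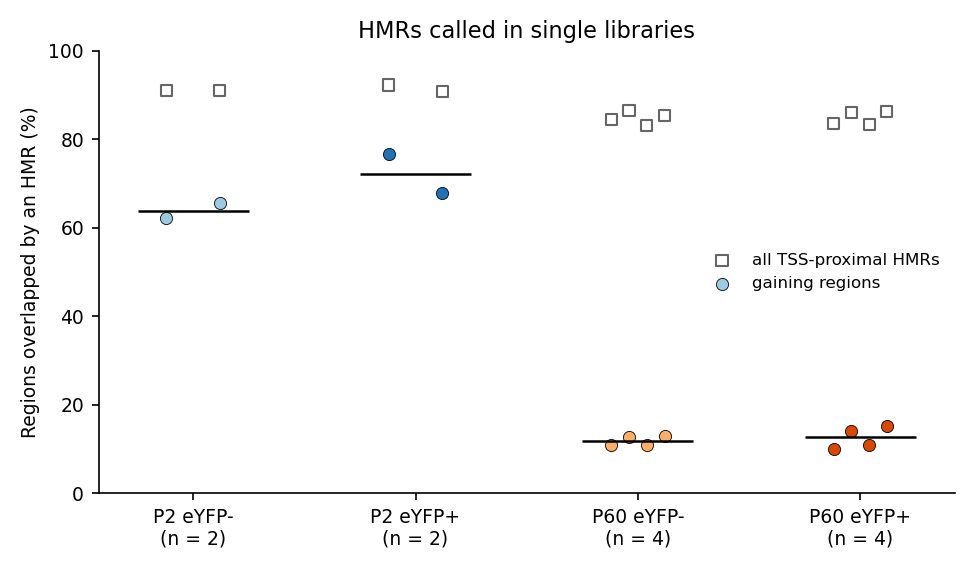
Share of regions (%, y axis) that an HMR of each library overlaps, with filled circles for the 991 gaining members, open squares for all 17055 TSS-proximal HMRs and a line for the group mean of the members. The members fall from 62.3% to 76.7% in the 4 P2 libraries to 10.1% to 15.2% in the 8 P60 libraries, while the squares stay above 83%.

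Methylation also differed between the stages beside the members. In the 500 bp on both sides of a member, the median level was 65.8% (eYFP-) and 65.1% (eYFP+) at P2 and 78.6% and 77.4% at P60. The median gain of these flanks was 11.2 and 10.3 points, against 3.14 and 2.10 points beside all TSS-proximal HMRs. Flanks of gaining regions away from starts were closer to the members, with 10.3 and 9.27 points inside genes and 8.95 and 8.12 points outside. The profile around the start nearest to each member showed a shallow dip. It is centred on the start and not on the member. A start lay inside 53.5% of the members and 89.3% of the other TSS-proximal HMRs, so the members' profile holds more sequence from outside the regions. In the 100 bp just upstream of that start, the level over all members was 28.4% and 27.1% at P2 and 47.5% and 46.4% at P60. The same bin of the other TSS-proximal HMRs had 3.2% and 3.3% at P2 and 3.1% and 3.2% at P60. The lines of the stages approached each other with distance from the start, and in the last bin, 1950 bp downstream, the levels were 64.6% and 65.2% at P2 and 67.3% and 67.0% at P60.

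**Figure D4:**
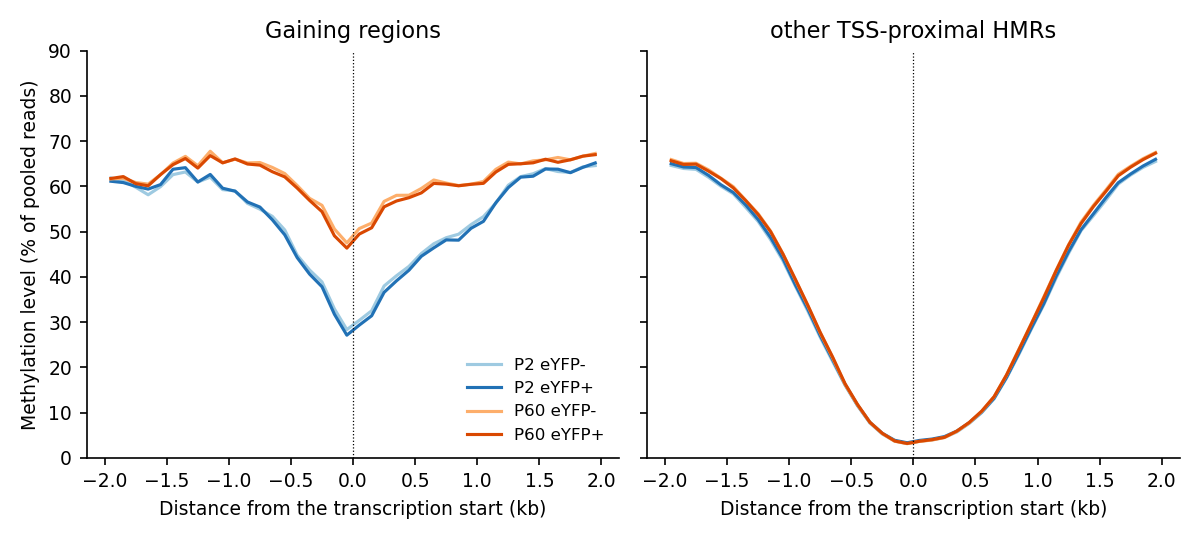
Methylation level (% of pooled reads, y axis) in bins of 100 bp by distance from the nearest transcription start (kb, x axis; negative values are upstream) for the gaining members (left) and the other TSS-proximal HMRs (right), with 1 line per pool. Around the members the dip at the start is shallow and is filled in part at P60, whereas the 4 lines of the other regions run together down to about 3%. Bins are centred on the start, which lies outside many members, so the depths of the panels are not directly comparable.

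The members were small and poor in CpGs for TSS-proximal HMRs. Their median length was 445 bp with 10 CpGs, against 1440 bp and 68 CpGs over all TSS-proximal HMRs. CpG density was 2.69 per 100 bp against 4.56, the ratio of observed to expected CpGs 0.399 against 0.611, and the GC content 53.5% against 55.5%. Only 142 members (14.3%) had more than 5 CpGs per 100 bp, against 41.4% of all TSS-proximal HMRs. These dense members, among them Agap3, had a median gain of 25.8 and 27.7 points, close to the 24.8 points in both pools of the sparser members. Gaining regions away from starts had still fewer CpGs, with 2.19 per 100 bp inside genes and 2.14 outside. TSS-proximal HMRs that did not gain and whose P2 levels lay within the full range of the members had a median length of 1312 bp and 4.01 CpGs per 100 bp, but their median P2 levels of 5.22% and 5.28% were below those of the members.

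A transcription start was inside 530 members (53.5%), against 87.2% of all TSS-proximal HMRs. The midpoint was upstream of the nearest start in 468 members (47.2%), against 32.8%. By annotation at the midpoint, 509 members were in introns, 217 in UTR exons, 122 in coding exons, 51 in exons of non-coding transcripts and 92 outside protein-coding genes. An HMR that stayed at or under 10% in all pools was within 2 kb of 126 members (12.7%), against 7.05%.

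Most members were nearest to annotated starts other than the canonical one, and use of these starts in β cells was not measured. The annotation assigns the canonical start to 1 transcript per gene. It was more than 1 kb from the midpoint of 725 members (73.2%), against 29.0% of all TSS-proximal HMRs. Of these 725, 14 were long enough to reach within 1 kb of it. The median distance between both starts was 20713 bp. Of these 725 members, 656 belonged to a gene with another HMR within 1 kb of the canonical start, and that HMR was at or under 10% in all 4 pools in 538 (82.0%). Its median level was 2.85% and 3.02% at P2 and 3.72% and 3.83% at P60, and it changed by less than 5 points in both pools in 551 cases (84.0%). In 21 cases this other HMR gained at least 15 points in both pools. In Lrba the canonical start, 322557 bp upstream, had 1.44% and 1.48% at P2 and 1.01% and 0.91% at P60. In Nav2, whose member is 345041 bp downstream of the canonical start, the canonical HMR went the other way, from 14.1% and 14.5% to 4.91% and 4.32%.

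**Figure D5:**
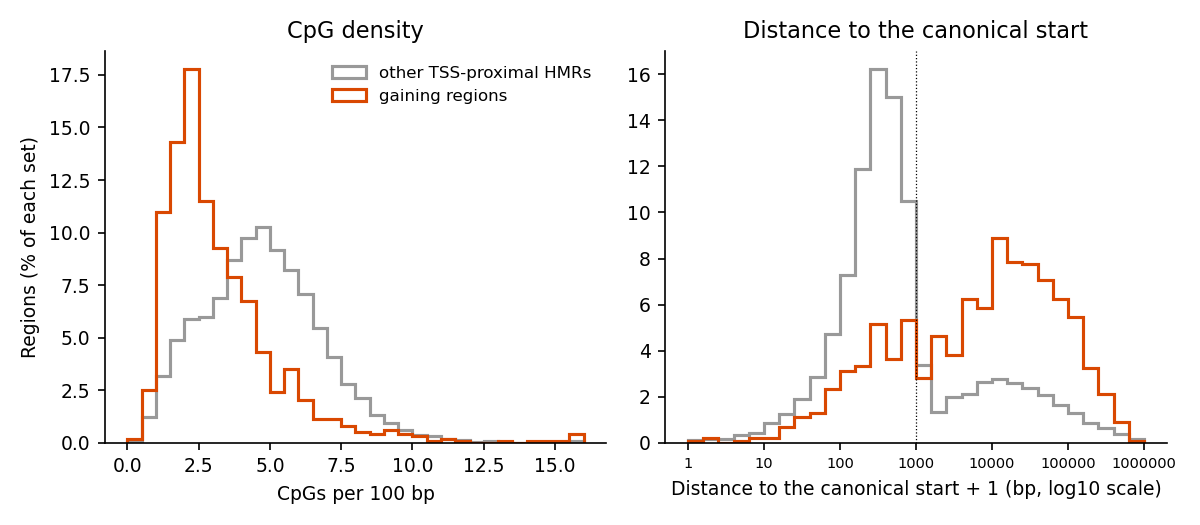
CpGs per 100 bp (left) and distance from the midpoint to the canonical start of the gene (right, bp on a log10 scale, 1 kb dotted), as the share (%) of the gaining members in orange and of the other TSS-proximal HMRs in grey. The members peak near 2 CpGs per 100 bp and mostly beyond 1 kb, the other regions near 5 CpGs per 100 bp and within 1 kb.

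The 991 members had 873 nearest genes, of which 103 had at least 2 members. The number was highest, at 4, in Nav2 and Celsr3, a cadherin of planar cell polarity. The further Nav2 members gained 16.7 to 44.2 points in the eYFP- pool. Of the 4 Celsr3 members, 3 lay next to each other within chr9:108709049-108710021, with 16.5% to 23.7% in the P2 eYFP- pool and 44.7% to 47.0% at P60. Ddc, the aromatic amino acid decarboxylase that makes serotonin and dopamine, had 3 members between 12.1% and 23.9% at P2 and between 38.6% and 48.9% at P60. Such members share a gene and are not independent.

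Of 15 genes of β-cell identity and maturation with any TSS-proximal HMR, 2 (13.3%) had a member, against 873 of 13228 genes (6.60%) in total. Genes of this list without such an HMR were not counted, and 2 genes are too few to compare the shares. Prlr, the prolactin receptor, through which β-cell mass adapts to pregnancy, had a member at chr15:10215786-10216015, 38783 bp downstream of the canonical start. Its levels were 33.1% (145 reads) and 18.7% (139 reads) at P2 and 74.5% and 72.0% at P60, and no single P2 library had an HMR there. The canonical Prlr HMR went from 6.76% and 6.28% to 2.57% and 2.37%.

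Among disallowed genes, which are active in most tissues but kept low in mature β cells, 3 of 23 had a member. Dapp1, an adaptor of immune receptor signalling, had 34.6% and 23.3% at P2 and 56.6% and 50.5% at P60. Its member is near a start 25707 bp from the canonical one, and the canonical HMR had 8.59% and 9.05% at P2 and 7.58% and 7.68% at P60. Arhgdib, an inhibitor of small GTPases in blood cells, had 31.4% and 22.2% at P2 and 49.0% and 46.7% at P60, and Lmo4, a LIM-domain cofactor, is the member just inside the limit. Ldha and Slc16a1, the best known disallowed genes, had no member, and the HMR at the Slc16a1 start had 3.40% and 3.24% at P2 and 6.08% and 4.96% at P60. Of the 27 genes of the cell cycle and of fetal growth, only Mycl, a Myc family transcription factor, had one. The Mycl region, chr4:122892177-122893133, had 9.16% and 10.4% at P2 and 54.9% and 54.1% at P60, while the canonical start 3265 bp upstream had 2.16% and 1.98% at P2 and 4.41% and 4.25% at P60.

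Of 16 genes of DNA methylation and chromatin, 3 had a member, against 6.60% of all genes with a TSS-proximal HMR, and 3 genes are too few to compare the shares. Dnmt3a, the de novo methyltransferase itself, is known to have an internal promoter that gives a shorter protein. Its member, chr12:3941135-3942479, covers a start 84765 bp downstream of the canonical one and holds 61 CpGs. It had 14.6% and 16.9% at P2 and 36.2% and 37.6% at P60, with an HMR in all 12 libraries. The canonical HMR of Dnmt3a was between 1.36% and 1.75% in all 4 pools. Bmi1, a Polycomb protein that represses the Ink4a locus, had 12.3% and 9.55% at P2 and 54.9% and 49.5% at P60 at chr2:18685530-18686027, whereas its canonical HMR stayed between 1.79% and 3.19%. Hdac5, a histone deacetylase, had 27.4% and 26.6% at P2 and 54.9% and 55.5% at P60, and its canonical HMR stayed between 0.740% and 1.09%.

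Ion channel genes had a member in 18 of 133 cases (13.5%), against 6.60% of all genes with a TSS-proximal HMR. Cacnb2, an auxiliary subunit of voltage-gated calcium channels, had 2 members, with 15.9% to 20.9% at P2 and 52.6% to 58.5% at P60. Kcnab2, a subunit of potassium channels, had 13.9% and 11.9% at P2 and 60.1% and 48.1% at P60. Its region holds 6 CpGs, and no single P2 library had an HMR there. The subtype difference at P60 was called (Fisher's exact test, adjusted p = 0.0489). Of 230 genes of actin, adhesion and small GTPase regulation, 23 (10%) had a member, among them Myo10 and Arhgef10l with at least 2 members each. Kcnj11, which encodes the pore of the ATP-sensitive potassium channel of the β cell, had no member. Vesicle and exocytosis genes had a member in 9 of 113 cases (7.96%). They include Unc13b, a priming factor of exocytosis, with 21.9% and 23.8% at P2 and 58.6% and 55.3% at P60. Rab27a, a GTPase of secretory granules, had 20.8% and 18.8% at P2 and 50.8% and 48.8% at P60. Stx1a, a syntaxin of the plasma membrane, had 6.41% and 12.3% at P2 and 33.8% and 34.8% at P60. The members of Unc13b, Rab27a and Stx1a are near annotated alternative starts, and the canonical HMRs of these genes were between 1.21% and 6.90% in the 4 pools.

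Of 126 signalling receptors and ligands, 9 (7.14%) had a member, with several semaphorins and a semaphorin receptor among them. Sema6b had 20.2% and 23.9% at P2 and 57.2% and 54.1% at P60, and its canonical HMR stayed between 2.45% and 3.79%. Transcription factors of development had a member in 9 of 89 genes (10.1%). Id2, an inhibitor of basic helix-loop-helix factors, had 29.6% and 16.7% at P2 and 73.6% and 77.7% at P60 in a region of 120 bp upstream of its start, and an HMR was called there in 1 of 4 P2 libraries. The lists are formed by symbols, so that Itgb1bp1, Rab11fip3 and Runx1t1 are counted through their names. Shares of lists of 15 to 27 genes rest on 1 to 3 genes. The share over all 13228 genes with a TSS-proximal HMR was 6.60%. No list was matched to these genes by number of annotated starts or of TSS-proximal HMRs, and no share was tested.

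Markers of other cell types were examined beside the gain. Of 61 marker genes measured, 3 had a member. Most of the 61 had no TSS-proximal HMR within the limits and could not have a member. Their levels were read in a window of 2 kb around the gene start, so the medians below join both kinds of region. Ppy, the hormone of γ cells, had 22.4% and 22.3% at P2 and 62.9% and 66.2% at P60. Krt19, a keratin of duct cells, had 8.41% and 8.18% at P2 and 31.9% and 28.7% at P60, and Spp1, the secreted protein osteopontin of duct cells, had 16.4% and 19.8% at P2 and 38.6% and 40.8% at P60. The median level over all 8 β-cell markers was 15.9% and 20.3% at P2 and 7.35% and 8.49% at P60. Single markers moved in different directions. Ins1, an insulin gene, went from 32.5% and 43.3% to 7.93% and 10.1%, and Ins2, Iapp and Slc2a2 were also lower at P60 in both pools, whereas Mafa, a transcription factor of mature β cells, was slightly higher in both pools and Nkx6-1, another transcription factor, had 1.26% and 1.34% at P2 and 2.79% and 2.72% at P60. Over 12 acinar markers the median was 68.1% and 66.4% at P2 and 63.0% and 63.5% at P60. Amy2a5 had no value in the P2 eYFP+ pool and is missing from that median. Over 8 endothelial markers it was 56.4% and 55.1% at P2 and 54.7% and 56.4% at P60. Over 8 immune markers it was 71.6% and 73.5% at P2 and 70.5% and 69.7% at P60. The 7 duct markers went from 4.99% and 5.27% to 10.5% and 9.31%, the 7 markers of α, δ and γ cells from 4.70% and 6.24% to 6.99% and 7.89%, the 7 mesenchymal markers from 25.3% and 29.0% to 23.8% and 24.5%, and the 4 neural markers from 9.14% and 9.03% to 9.98% and 11.1%. The part of the cellular make-up of the sorted cells in the gains was not tested.

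The rule did not name the difference between the subtypes within a stage, but it used the same pooled counts. Only 758 members (76.5%) were overlapped by an HMR of both P2 pools. The others entered through an HMR of a single P2 pool. Selection can thus bring in a subtype difference, and its part was not tested. The difference was tested region by region (Fisher's exact test, two-sided, reads of the pools), adjusted by the Benjamini-Hochberg method over all 81983 HMRs. The test compares pools and not mice. It treats the summed counts as independent, so its p-values can be too small where reads cover several CpGs. At P2, 27 members (2.72%) had an adjusted p under 0.05, against 2.05% of all HMRs. Of these, 23 (2.32% of the members) were lower in eYFP+ cells, against 0.74% of all HMRs called in this direction. At P60, 34 members (3.43%) were called, against 1.93%, and 28 (2.83% of the members) were lower in eYFP+ cells, against 1.06%. Most members were thus not called, and those that were called were mostly lower in eYFP+ cells at both stages. At an unadjusted p under 0.05 the numbers were 182 and 188 members.

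Small differences leaned the same way. The median difference, eYFP+ minus eYFP-, was -1.55 points at P2 and -1.49 points at P60 in the members, against 0.19 and -0.11 points over all HMRs. The eYFP+ pool was the lower one in 635 members (64.1%) at P2 and in 634 (64.0%) at P60, against 46.1% and 52.9% of all HMRs. Gaining regions away from starts had medians of -0.89 and -1.09 points inside genes and -1.23 and -1.35 points outside them. The lean was thus found in gaining regions of every position, all chosen by their gain in the same pooled counts. Of the 12 members with the largest gains, 10 were lower in the eYFP+ pool at P2 and 8 at P60. Only Agap3 among them was called, at P60, with a difference of -3.92 points (Fisher's exact test, adjusted p = 0.000134).

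At both stages, 4 members were called. The region of Serpinh1, a collagen chaperone, at chr7:99000343-99002703 had 12.9% (eYFP-) and 9.26% (eYFP+) at P2 (Fisher's exact test, adjusted p = 0.0383) and 39.0% and 30.04% at P60 (adjusted p = 2.72e-13). Shank3, a postsynaptic scaffold, had 14.7% and 10.5% at P2 (Fisher's exact test, adjusted p = 0.00713) and 37.1% and 29.9% at P60 (adjusted p = 3.71e-12). Hsf4, a heat shock factor, had 13.4% and 9.20% at P2 (Fisher's exact test, adjusted p = 0.0257) and 48.3% and 43.2% at P60 (adjusted p = 0.000369). In these 3 the eYFP+ pool was the lower one. S100z, a calcium-binding protein of the S100 family, was opposite, with 19.3% and 31.6% at P2 (Fisher's exact test, adjusted p = 0.00116) and 35.3% and 52.2% at P60 (adjusted p = 1.34e-10). An HMR overlapped the S100z region in 3 of 4 P2 and in 2 of 8 P60 libraries.

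Other calls were made at 1 stage. At P2, Pfn3, a profilin, had 19.3% in eYFP- and 9.22% in eYFP+ cells (Fisher's exact test, adjusted p = 6.76e-05), and at P60 41.9% and 39.9% (adjusted p = 0.671). Jakmip1, which binds microtubules, had 27.8% and 16.6% at P2 (Fisher's exact test, adjusted p = 0.00191) and 70.3% and 67.7% at P60 (adjusted p = 0.537), and 2200002D01Rik had 14.2% and 9.10% at P2 (adjusted p = 0.000666). The opposite direction was found for Elmo2, which acts in cell engulfment, with 13.7% and 31.1% at P2 (Fisher's exact test, adjusted p = 0.00534), and for the centrosomal gene Cep170, with 14.1% and 27.2% (adjusted p = 0.0211). At P60 both had like levels, 50.4% and 53.3% at Elmo2 and 69.1% and 69.0% at Cep170.

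At P60 the lowest adjusted p after that of Serpinh1 was that of Vgll4, a cofactor of TEAD transcription factors. It had 17.6% and 13.0% at P2 (Fisher's exact test, adjusted p = 0.172) and 47.5% and 33.5% at P60 (adjusted p = 7.98e-13), the larger difference being in the adult. Atl1, a GTPase that shapes the endoplasmic reticulum, had 38.7% and 47.0% at P60 (Fisher's exact test, adjusted p = 0.000716), and Slc2a5, the fructose transporter, 33.1% and 39.5% (adjusted p = 0.00546). These were higher in eYFP+ cells. Whether the difference between subtypes changed from P2 to P60 was not tested.

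Short sequences known as binding motifs were counted on both strands in windows of 300 bp at the centre of each region. GGGCGG, bound by SP and KLF factors, was in 24.02% of the members and in 46.2% of all TSS-proximal HMRs, and TTCCGG, an ETS motif, in 8.17% against 16.2%. Both contain a CpG, and the members hold fewer CpGs. Several motifs without a CpG were more common in the members. AGATAA, which blood and gut lineage factors of the GATA family bind, was in 15.2% against 7.01%, TAATTA, of homeodomain factors, in 7.57% against 3.22%, TGTTTAC, of FOXA factors, in 6.46% against 3.20%, TGACTCA, of AP-1, in 7.77% against 3.49%, and CAGCTG, an E box, in 27.9% against 18.7%. CCAAT was in 26.5% against 24.6%, CACGTG in 6.36% against 6.46% and TGACGTCA in 0.706% against 1.07%. The members have a lower GC content, which moves with such counts, and its part was not tested.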

How the data were processed

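WGBS was analysed for 12 libraries in 4 groups. Per the labels and the methods, the authors trimmed reads with Trim Galore 0.6.6 and cutadapt 1.16, checked them with FastQC, used SAMtools 1.5, mapped to mm39 with abismal and counted methylated and unmethylated reads per CpG and called HMRs with MethPipe (versions not given in the sources used here). The deposited values are raw read counts per CpG, as 1 pool per subtype and stage, and HMR positions for pools and libraries. Lists of candidate DMRs hold the authors' comparisons and were not used. The pools are named B1 and B2. They were taken as eYFP- and eYFP+ because row counts of the DMR lists then match the study's text.

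HMRs were merged and read counts summed per region in Python 3.11.15 (numpy 2.4.6, pandas 2.3.3, scipy 1.17.1). Every autosomal CpG in the counts lay on a CpG of the GRCm39 sequence (100%). Fisher's exact tests (threshold 0.05, adjusted over all eligible HMRs) were tested on simulated data. The simulated reads were independent and had no spread between libraries, so the simulation cannot show how the tests behave on these pools. Flank levels needed at least 20 reads, an overlap 1 bp. Named members were the 12 with the largest smaller gain, at most 4 per gene list by gain, at most 3 per stage and direction by adjusted p, and 2 on each side of the limit. The members and lists were chosen with earlier results of these data known. Tables of promoters on GRCm38 were not used here. Some named members and 1 sequence are not reported here.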

Additional observations from a re-analysis of the deposited data

How the results depend on the processing

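The number of members was 991. It was 1536 with a gain of at least 10 points and 653 with 20 points, 1517 with midpoints within 2 kb of a start, and 259 when only the outermost start of each gene counted. It stayed within 1.5 times of 991 with 30 or 100 reads per pool (992 and 984), with midpoints within 500 bp (701), with unweighted means of CpG levels (1003) and with HMRs of the P2 pools only (991). The limits on gain, distance and kind of start set the size of the group by their construction. The subtype calls among the members, 27 at P2 and 34 at P60, were 30 and 42 with adjustment over TSS-proximal HMRs only and 27 and 35 with at least 100 reads. The median subtype differences kept their sign with unweighted means (-1.56 and -1.52 points).

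Counting only libraries whose HMRs cover at least 50% of a member gave shares of 59.6% (P2 eYFP-), 69.2% (P2 eYFP+), 3.38% (P60 eYFP-) and 3.61% (P60 eYFP+). Leaving out 1 library at a time gave 62.3% to 65.5%, 67.8% to 76.7%, 11.5% to 12.2% and 11.7% to 13.4%. Against TSS-proximal HMRs with P2 levels in the full range of the members, the background length was 1312 bp, the density 4.01 CpGs per 100 bp, the share covering a start 85.1% and the share more than 1 kb from the canonical start 34.3%. All 4 kept the direction of the difference from the members. No paired analysis was possible because the read counts used here are pools of the replicates and the shares of single libraries come from no test. Counting error limits small members most, and the pools allow no estimate of the spread between mice.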

Other observations

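A few members gained unequally in the subtypes. Nr4a2, an orphan nuclear receptor induced by activity, had 39.1% in eYFP- and 26.7% in eYFP+ cells at P2 and 61.8% and 73.8% at P60, which are gains of 22.7 and 47.2 points. Srek1ip1 gained 30.3 and 52.1 points, and Tap1, a peptide transporter of antigen presentation, 29.9 and 47.1 points. Borcs5, a lysosome positioning factor, was opposite with 36.9 and 16.9 points. These 4 were picked for the size of the gap, no test was made of it, and each is a value from pools without replicates.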
